A study of Macaca mulatta with 8 samples.

Results

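The comparison set adoptively transferred regulatory T cells (Tregs) of rhesus macaques beside the blood CD4 cells that carried both CD25 and CD127, on day 3 and again on day 20. It used 4 of the 8 libraries of the series, chosen by their sort labels and day, with all of their cells: 12993 of 25397 cells. The CFSE-positive sort, which the title of the series implies to be the transferred cells, held 4142 cells with 12149559 UMIs (counted RNA molecules) at day 3. At day 20 it held 1149 cells with 2992787 UMIs. The sort of CD3+CD4+ cells positive for CD25 and CD127, here called CD127-positive CD25-positive or the reference, held 2951 cells with 8945900 UMIs at day 3 and 4751 cells with 10488609 UMIs at day 20. All 4 came from cryopreserved blood mononuclear cells that were thawed on one day and enriched for CD4 before the sort. The labels give no genotype, age, treatment or number of animals, and do not say how the transferred cells were prepared or whether both days came from the same animal. CFSE is a dye that labelled cells keep and dilute as they divide, so a dye-positive sort holds those cells that had kept enough dye. Each sort had 1 library per day, so no test was run and no p-value is given, and all intervals are at 95% and reflect counting error alone.

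Tregs hold immune responses in check, and their identity depends on the transcription factor FOXP3. They carry much CD25, the alpha chain of the interleukin-2 receptor (gene IL2RA), and little CD127, the interleukin-7 receptor chain (gene IL7R). Conventional CD4 cells can carry CD25 too, after activation or as memory cells, so a sort of CD25-positive cells that also carry CD127 gives a reference that shares 1 surface marker with Tregs and differs in the other.

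Levels are CPM, UMIs of a gene per 1000000 UMIs of its library, summed over all cells. Ratios are log2 ratios of the CFSE-positive over the CD127-positive CD25-positive library of the same day, after adding 10 CPM to both, and folds are ratios of the CPM themselves. In a sum over a library, fewer cells with a transcript and less RNA per cell cannot be told apart. Calls needed a ratio of 2-fold or more and a level of 50 CPM or more in 1 of both libraries. The label of T cells was checked on markers: CD3D stood at 1175 to 2273 CPM and CD3E at 30.4 to 60.1 CPM in the 4 libraries, PTPRC (CD45) at 245 to 280 CPM, and CD4 itself at just 3.47 to 7.02 CPM. CD8A and CD8B together reached at most 3.68 CPM, the summed NK cell markers 3.15 CPM, the monocyte markers 21.6 CPM and the platelet markers 0.49 CPM. The summed red cell markers stood at 734 and 143 CPM in the transferred libraries and 306 and 126 CPM in the reference, with HBB at 503.5 and 146.5 CPM on day 3, and 0.67 and 0.29 CPM on day 20. Their part in the results was not tested. At most 30 cell barcodes were shared between any pair of the 4 libraries. Ribosomal protein genes took 31.5% of UMIs in the CFSE-positive and 42.8% in the CD127-positive CD25-positive library of day 3, but 39.2% and 40.9% on day 20.

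On day 3 the transferred cells differed from the CD127-positive CD25-positive cells in far more genes than on day 20. Of 2222 genes, 254 were called higher in the transferred cells (11.4%) and 102 lower (4.59%). On day 20, of 1970 genes, 36 were called higher (1.83%) and 43 lower (2.18%). The day 3 split depended on the scaling. Over all these genes the median log2 ratio was 0.51 on day 3 and 0.06 on day 20, and TMM factors shifted the median gene by -0.40 and -0.12. With TMM, 79 genes were higher and 209 lower on day 3, and 21 higher and 57 lower on day 20. The ribosomal protein share moved with this shift, and its part in it was not tested. Of the 102 genes lower on day 3, 61 had no gene name. The calls that held on both days were 18 genes higher (0.945% of 1904) and 25 lower (1.31%), or 11 and 36 with TMM. All 25 lower genes were also called lower with TMM. The days used separate pairs of libraries, but they are not replicates.

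**Figure D1:**
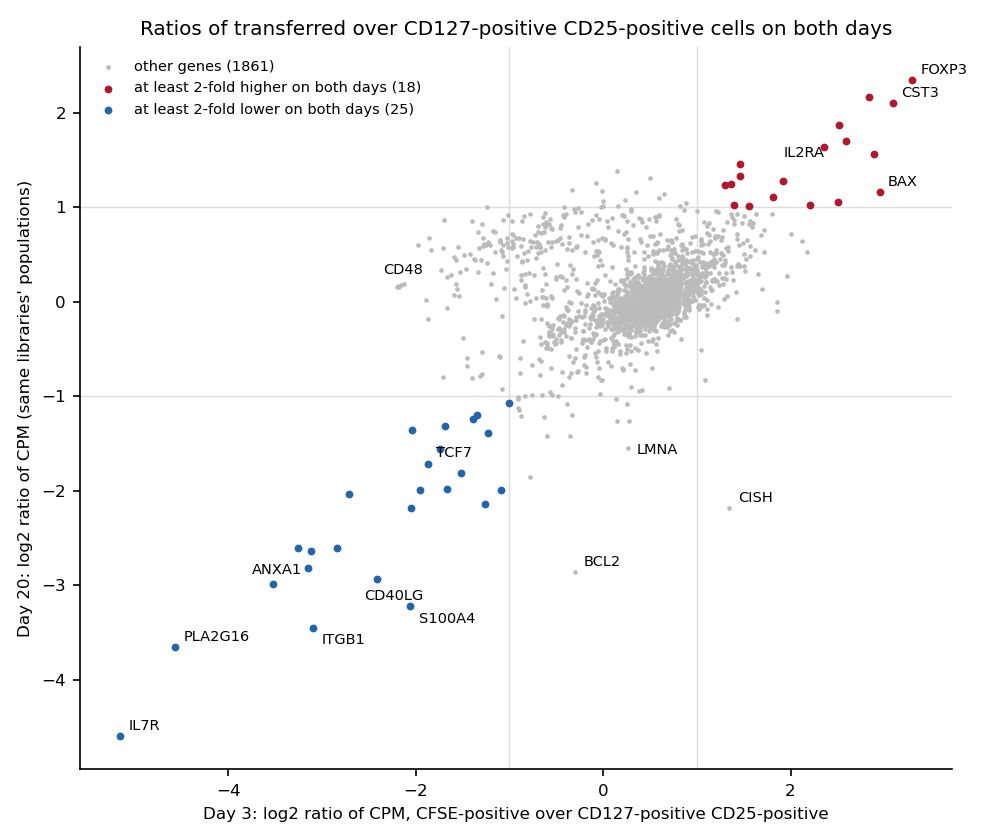
Each point is 1 of the 1904 genes that reached 50 CPM in either library on both days; the x axis is the log2 ratio of CPM on day 3 and the y axis that on day 20, CFSE-positive over CD127-positive CD25-positive. The 25 blue genes reach down to IL7R (-5.15 and -4.60), the 18 red genes up to FOXP3 (3.30 and 2.35), and CISH alone lies beyond 2-fold in opposite directions.

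FOXP3 (ENSMMUG00000008624), the transcription factor that defines Tregs, led the genes higher on both days. It stood at 258.5 CPM in the transferred and 17.3 CPM in the CD127-positive CD25-positive cells on day 3, and at 127 and 16.9 CPM on day 20. The transferred cells were thus 14.9-fold higher on day 3 (interval 12.7 to 17.7) and 7.52-fold higher on day 20 (6.28 to 9.05). The CD25high CD127low sort, gated on the surface phenotype of Tregs, was at 76.0 and 67.8 CPM as a whole library. It was a mixture: the authors' annotation put 60.9% of its cells on day 3 and 57.9% on day 20 in the class Tconv, and 38.9% and 40.03% in endoTreg. Its endoTreg cells held 160 and 140 CPM of FOXP3, below the whole transferred library on day 3 and close to it on day 20. The CD127-positive CD25-negative sort was at 0.53 and 0.25 CPM. With each cell thinned to 1000 UMIs, 22.04% of transferred cells had a FOXP3 UMI on day 3 and 13.2% on day 20, against 1.59% and 1.64% of CD127-positive CD25-positive cells. In the CD25-negative sort, which should lack the gene, the share was 0.066% and 0.027%. Without thinning, the compared shares were 46.6% and 25.4% against 3.25% and 2.82%, at median depths of 2796 and 2588 against 2942 and 2131 UMIs per cell.

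IL2RA (ENSMMUG00000015151), the gene of a marker used in the sort, followed the same order. Transferred cells held 634 CPM on day 3 and 305 CPM on day 20, the reference 97.0 and 86.5 CPM. The transferred cells were 6.54-fold higher on day 3 (6.09 to 7.02) and 3.52-fold on day 20 (3.21 to 3.87), although the reference was sorted as CD25-positive. After thinning, 45.04% and 28.0% of transferred cells had an IL2RA UMI, against 8.34% and 7.76%.

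Of the other 10 named genes higher on both days, 5 had the largest ratios. IGKC (ENSMMUG00000046927), the immunoglobulin kappa constant region, stood at 147 and 108 CPM in transferred cells, and at 11.96 and 16.2 CPM in the reference. CST3 (ENSMMUG00000040355), the secreted protease inhibitor cystatin C, stood at 134 and 68.8 CPM, beside 6.82 and 8.30 CPM. CD9, a tetraspanin membrane protein, stood at 227 and 155 CPM, beside 31.3 and 35.3 CPM. These were 12.3-fold, 19.6-fold and 7.26-fold differences on day 3. CLDND1, a claudin-domain membrane protein, was 6.78-fold and 3.74-fold higher, and CSF1, the macrophage colony-stimulating factor, 12.9-fold and 3.71-fold. The CD25high CD127low sort lay between both for CD9 (87.2 and 94.1 CPM) and IGKC (55.2 and 46.5 CPM). CST3 was 21.8 and 27.5 CPM there, and 7.16 and 39.2 CPM in the CD25-negative sort, where the 10 richest cells held 98.2% and 95.9% of its UMIs and 1 cell of day 20 held 186.

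IGKC is best known from B cells, so B cell genes are given beside it. The summed B cell markers were 106 and 40.8 CPM in transferred cells and 22.2 and 24.1 CPM in the reference, almost all of it CD79A and CD79B. MS4A1 and BANK1 were at or near 0, at 1.05 CPM or less. Of the transferred cells, 12.6% had an IGKC UMI on day 3 and 8.88% on day 20 after thinning, against 0.95% and 1.03% in the reference and 0.43% and 0.57% in the CD25-negative sort. The 10 richest cells held 4.53% of the IGKC UMIs of the day 3 transferred library but 46.7% of those of the reference. Free RNA in the transferred library of day 3, where HBB and the B cell markers were higher too, was not estimated, and its part in these shares was not tested. Without cells that carried 3 or more UMIs of foreign cell markers or over 2 times the median depth, the IGKC log2 ratio was 2.91 on day 3 and 2.48 on day 20, against 2.84 and 2.17 with all cells.

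The remaining 5 differed less, and for all but NAA15 the folds of both days were similar. SFR1, a partner of SWI5 in DNA recombination, stood at 53.01 and 51.8 CPM in transferred cells against 12.97 and 12.4 CPM. ABI2, an adaptor of the actin-regulating WAVE complex, stood at 83.7 and 74.5 against 24.2 and 23.5 CPM. PVRIG, an inhibitory receptor of T and NK cells, stood at 61.7 and 59.5 against 17.9 and 19.4 CPM. For these 3 genes the CD25high CD127low and CD25-negative sorts lay at 13.1 to 27.7 CPM on both days, so the 2 transferred libraries were above all 6 others. NAA15, a subunit of the N-terminal acetyltransferase NatA, was 4.37-fold and 2.64-fold higher. RTKN2, a gene of the Treg core list, was 2.88-fold and 2.74-fold higher on the 2 days, but on 1 of these days its log2 ratio was under 1 with TMM factors (0.92), size factors (0.95) or CPM over named genes (0.95). The other 6 genes called higher on both days were BAX, HEBP2, PTMS, SLC25A4, SYTL2 and ITGAE, with folds of 3.61 to 8.37 on day 3 and 2.14 to 2.51 on day 20. The day 20 log2 ratios of ITGAE and SLC25A4, 1.02 and 1.03, were close to the 2-fold limit. A shift as large as that of the median gene with TMM (-0.12) would put both under it. STRIP2, named after its values were seen, was under 50 CPM on day 3 and so not eligible, at 35.2 beside 0.67 CPM then and 54.5 beside 1.53 CPM on day 20.

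**Figure D2:**
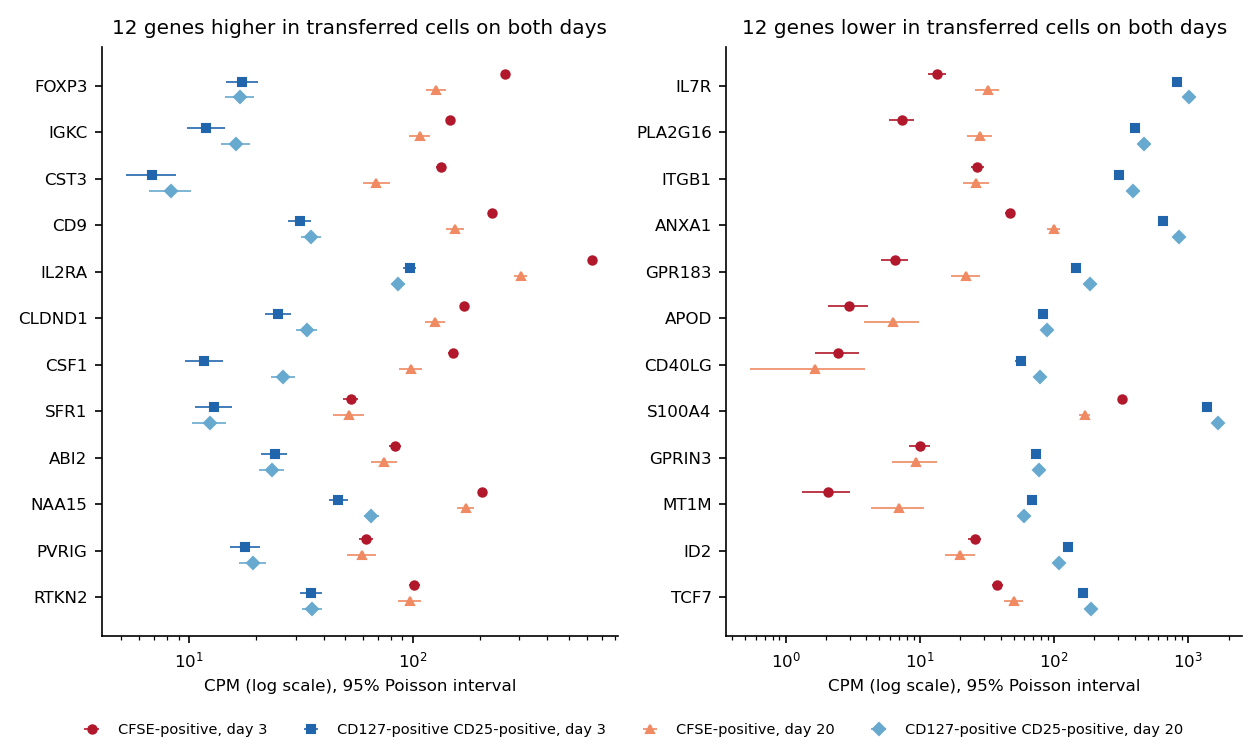
CPM (log scale) of the 12 named genes per direction in each of the 4 libraries, with 95% Poisson intervals as bars. In the left panel both CFSE-positive libraries (circles, triangles) lie right of both CD127-positive CD25-positive libraries for every gene, and in the right panel all lie left of them.

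IL7R (ENSMMUG00000001676), whose protein CD127 was used to sort the reference, was the gene furthest below it. The transferred cells held 13.4 CPM on day 3 and 32.1 CPM on day 20, against 823 and 1008 CPM. The reference was 61.4-fold higher on day 3 (52.5 to 72.1) and 31.4-fold on day 20 (25.7 to 38.8). The mixed CD25high CD127low sort held 404 and 460 CPM of IL7R. Its endoTreg cells held 145 and 216 CPM and its Tconv cells 585 and 638 CPM. The transferred libraries were the lowest of all 8. After thinning, 1.19% and 2.44% of transferred cells had an IL7R UMI, against 52.8% and 58.6%.

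Several other named lower genes act in adhesion, migration or memory. ITGB1, the integrin beta 1 chain, stood at 26.8 and 26.4 CPM against 304 and 387 CPM. ANXA1, annexin A1, stood at 47.2 and 99.2 CPM against 649 and 857 CPM. GPR183, an oxysterol receptor that positions lymphocytes within lymphoid tissue, stood at 6.50 and 22.1 CPM against 147 and 185 CPM. The endoTreg cells of the CD25high CD127low sort held 281 and 338 CPM of ITGB1 and 104 and 179 CPM of GPR183, above the transferred cells, and its Tconv cells held 336 and 466 CPM and 163 and 199.5 CPM. S100A4, a calcium-binding protein high in memory T cells, was 323 and 169 CPM against 1377 and 1657 CPM, while the mixed CD25high CD127low sort held 2044 and 2259 CPM. Its difference was larger on day 20, at 9.80-fold (8.97 to 10.7), than on day 3, at 4.26-fold (4.11 to 4.42), and that change was not tested. The 10 richest cells held 46.4% of the S100A4 UMIs of the day 20 transferred library and 12.02% of those of day 3.

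The ligand CD40LG and genes of the resting state were among the lower ones. CD40LG, the ligand by which helper T cells activate B cells, was at 2.47 and 1.67 CPM against 56.3 and 79.0 CPM, and only 5 UMIs of it were counted in the transferred cells of day 20. The other measured members of the list of helper cytokines and CD40LG were the lymphotoxin genes LTB and LTA, both with a log2 ratio of 0.99 on day 3, and on day 20 LTB was measured at 0.36. TCF7, a transcription factor of naive and memory T cells, was at 37.9 and 50.5 CPM against 165 and 188 CPM. ID2, an inhibitor of E-protein transcription factors, was at 25.7 and 20.1 CPM against 128 and 110 CPM, although the reference itself lay far below the CD25-negative sort (680 and 518 CPM). ID3, of the same family, was higher in the transferred cells on day 3, at 73.1 beside 10.8 CPM. On day 20 it was 43.1 beside 24.2 CPM, a difference under 2-fold.

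PLA2G16, a phospholipase, was 54.6-fold lower on day 3 and 16.7-fold lower on day 20 (7.33 and 28.1 CPM against 400 and 469 CPM). APOD, a lipocalin that carries lipids, was 27.9-fold and 14.1-fold lower. GPRIN3 was 7.27-fold and 8.31-fold lower. MT1M, a metal-binding metallothionein whose reads could be split with close copies, was 33.6-fold and 8.53-fold lower. The other 13 genes called lower on both days included 4 without a name. The 9 named ones were CD69, EVI2B, TESC, SCML4, LEF1, BEX4, CYSLTR1, MX1 and DHRS7. Among these, CD69, which retains activated lymphocytes in tissue, was at 79.3 and 46.8 CPM against 274 and 214 CPM, and LEF1, the partner of TCF7 in resting T cells, at 49.96 and 64.8 CPM against 182 and 177 CPM.

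The deposited annotation splits the CD127-positive CD25-positive sort into classes that bear on these levels. On day 3, 90.7% of its cells were in the class the authors call Tconv and 9.22% in the class endoTreg, and on day 20 the shares were 93.7% and 6.17%. Of the CFSE-positive cells, 98.5% were in the class transTreg on day 3 and 92.6% on day 20, where 63 cells were Tconv and 22 endoTreg. The finer names of the transferred cells differed between days: 64.9% were named in transition and 27.1% effector on day 3, and 85.7% naive on day 20. The classes were made from these same cells, so the levels within them are descriptions.

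FOXP3 in the reference came mostly from its endoTreg cells. They held 87.1% of the FOXP3 UMIs of the day 3 library and 65.5% on day 20, at 151 and 170 CPM, while its Tconv cells held 2.49 and 6.13 CPM. The transTreg cells held 260 CPM on day 3 and 132 CPM on day 20, so on day 20 the few endoTreg cells of the reference were above the transferred cells. CST3 was split the same way, with 86.9% and 83.9% of its UMIs in endoTreg cells (59.2 and 107 CPM) and 0.995 and 1.43 CPM in Tconv cells. IGKC had 65.4% and 68.8% of its UMIs there, at 78.2 and 171 CPM against 4.60 and 5.41 CPM. CD9 was 142 and 164 CPM in endoTreg against 19.0 and 26.4 CPM in Tconv cells. IL1RL1, the receptor for interleukin-33, was 71.5 and 183 CPM against 1.62 and 2.45 CPM.

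SFR1, ABI2 and PVRIG did not follow that split. SFR1 was 17.9 and 20.5 CPM in endoTreg and 12.4 and 11.9 CPM in Tconv cells of the reference. ABI2 was 19.0 and 20.5 CPM against 24.6 and 23.5 CPM, and PVRIG 23.5 and 23.4 CPM against 17.3 and 19.1 CPM. Both classes lay below the transTreg cells, which held 53.5 and 54.1 CPM of SFR1 and 84.0 and 76.7 CPM of ABI2.

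The lower genes differed within the reference in another way. IL7R was 251 and 322 CPM in its endoTreg and 887 and 1057 CPM in its Tconv cells, and both were far above the transTreg cells (11.8 and 16.1 CPM). CD40LG was 19.0 and 29.3 CPM against 60.6 and 82.3 CPM, and TCF7 82.6 and 54.1 CPM against 175 and 198 CPM, where transTreg cells held 37.7 and 51.6 CPM of TCF7. S100A4 ran the other way, at 2546 and 4369 CPM in endoTreg and 1248 and 1466 CPM in Tconv cells. Among the reference's numbered clusters, the largest, cluster 7, with 59.2% and 56.6% of its cells, held only 324 and 493 CPM of S100A4 and most of the APOD UMIs (89.9% and 89.3%). Clusters 8 and 9 together held 64.7% and 62.0% of the S100A4 UMIs, and cluster 10, with 4.64% and 5.26% of cells, held 49.9% and 54.9% of those of MX1, an interferon-induced antiviral protein. With transTreg set against Tconv cells alone, the FOXP3 log2 ratio was 4.43 and 3.13 in place of 3.30 and 2.35, and that of IL7R -5.37 and -5.35 in place of -5.15 and -4.60. That of S100A4 was -1.96 and -3.72 in place of -2.06 and -3.22.

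**Figure D3:**
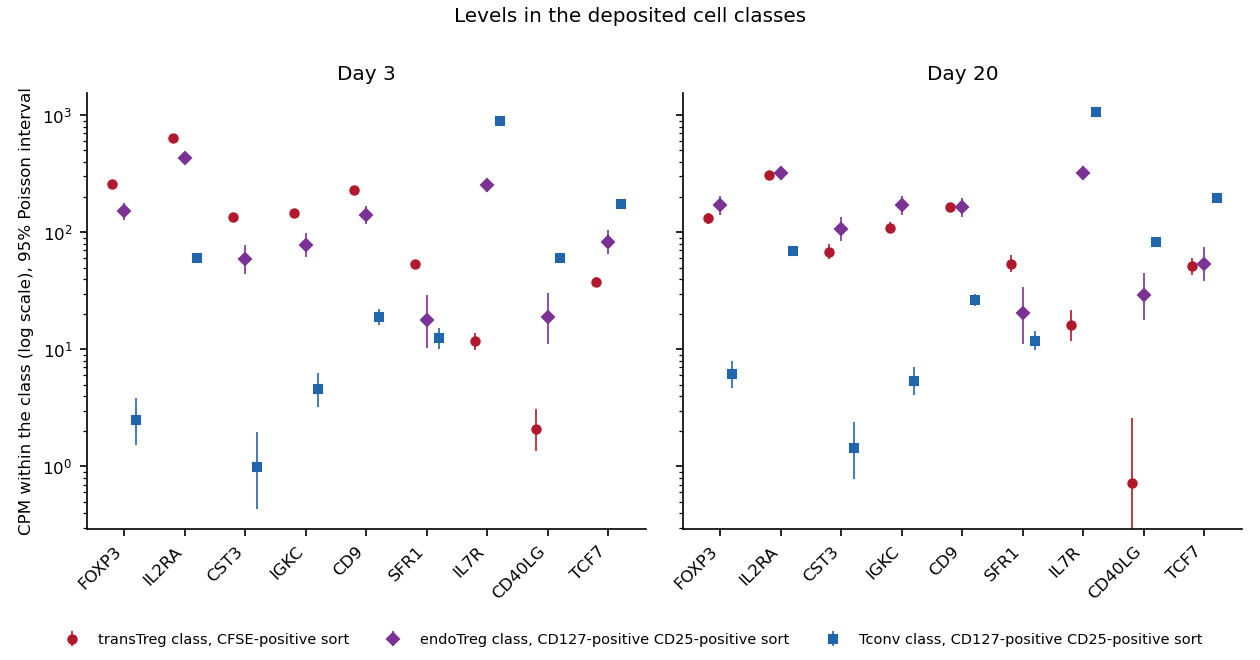
CPM (log scale, 95% Poisson intervals) of 9 genes within the transTreg class of the CFSE-positive sort and the endoTreg and Tconv classes of the CD127-positive CD25-positive sort, on day 3 and day 20. FOXP3, CST3, IGKC and CD9 are high in the transTreg and endoTreg classes and low in Tconv, while SFR1 is high in the transTreg class only (53.5 and 54.1 CPM), and IL7R and CD40LG are lowest in the transTreg class.

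Gene lists describe the wider pattern, over members with at least 20 CPM in 1 of both libraries. At that level, 8.15% of all 4162 genes were 2-fold higher and 3.27% lower on day 3. The median log2 ratio there was 0.43. On day 20 the shares were 1.36% and 1.77% of 3966 genes and the median 0.05. With TMM the day 3 medians of the lists were lower, for example 0.92 for the Treg core, 1.07 for p53 targets, 0.48 for the interleukin-2 and STAT5 list, 0.48 for the TNF receptor family, 0.50 for cytotoxic, -0.48 for naive and quiescent genes and -1.30 for Th17. Of the 26 Treg core genes, 13 were measured on day 3, of which 7 were 2-fold higher and 0 lower (median 1.30), and on day 20, of 11 measured, 3 were higher and 0 lower (median 0.64). Besides FOXP3, IL2RA and RTKN2, the list's higher members on day 3 were TNFRSF18 (GITR, 235 against 46.4 CPM), IKZF4 (40.2 against 7.04 CPM), ENTPD1 (the ectonucleotidase CD39, 23.9 against 0.89 CPM) and LRRC32 (GARP, which anchors latent TGF-beta, 32.8 against 1.01 CPM). On day 20 these 4 were at 93.9 against 56.7, 18.4 against 6.77, 9.69 against 1.43 and 3.01 against 0.38 CPM. CTLA4, an inhibitory receptor of Tregs, was 37.5 and 24.4 CPM in transferred cells and 16.99 and 16.5 CPM in the reference, and the CD25high CD127low sort was above both at 49.4 and 47.7 CPM. In all, 2 of the 13 measured members had a log2 ratio below 0 on day 3 and 4 of the 11 on day 20. ICOS, a costimulatory receptor, was lower in transferred cells by less than 2-fold on both days (31.4 against 48.2 and 28.4 against 56.1 CPM). ZBTB38 was below 0 on both days too (log2 ratios -0.32 and -0.67), and PRDM1 (-0.27) and BATF (-0.19) on day 20.

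Genes of the p53 pathway, which respond to DNA damage and other stress, were higher mainly on day 3. Of 30 listed, 9 were measured on day 3, of which 7 were 2-fold higher (median 1.43), and on day 20, of 7 measured, 1 was higher (median 0.28). A day 3 shift as large as that of the median gene with TMM (-0.40) would put CCNG1 and TRIAP1 (1.28 and 1.13) under 2-fold. BAX (ENSMMUG00000003907), which permeabilises mitochondria in apoptosis, was at 894 and then 262 CPM in transferred cells, where the reference held 107 and 111 CPM. The folds were 8.37 (7.83 to 8.95) and 2.35 (2.14 to 2.57). After thinning, 54.5% and 22.3% of transferred cells had a BAX UMI, against 9.76% and 10.4%. GADD45A was 9.65-fold higher on day 3 (43.1 against 4.47 CPM), CDKN1A, the cell cycle inhibitor p21, 6.17-fold (32.4 against 5.25 CPM), and ZMAT3 5.82-fold (58.5 against 10.1 CPM). On day 20, ZMAT3 was 13.4 against 15.5 CPM and CDKN1A 6.01 against 3.62 CPM. BAX and ZMAT3 were among 6 genes whose level in the day 3 transferred library was over 3 times that in each of the other 7. The others were GCLM, BTG3, IL18R1 and CD70. Of 6 measured genes that block apoptosis, BCL2L1 was the 1 higher on day 3, close to the 2-fold limit at a log2 ratio of 1.03. BCL2 was the 1 of 5 lower on day 20.

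In the list of interleukin-2 and STAT5 genes, 5 of 14 measured were 2-fold higher and 1 lower on day 3 (median 0.85). On day 20, 2 of 13 were higher and 2 lower (median 0.16). The 2 higher on day 20 were FOXP3 and IL2RA, which were among the 5 of day 3 as well. Both are also members of the Treg core list. A shift as large as that of the median gene with TMM (-0.40) would put the others of day 3, CISH, CCND2 and GZMB, under 2-fold. The 2 lower on day 20 were BCL2 and CISH. MYC, a growth regulator, was the gene lower on day 3 (61.5 against 140 CPM). Of the TNF receptor family and its ligands, 3 of 13 were higher on day 3, CD70, TNFRSF18 and FAS, and 2 lower, CD40LG and TNFSF13B. CD70, the ligand of CD27, stood at 55.2 and 10.4 CPM in transferred cells and at 1.68 and 1.72 CPM in the reference. TNFSF13B, the B cell survival factor BAFF, stood at 1.89 against 39.8 and 6.68 against 39.6 CPM. On day 20, 0 of 12 were 2-fold higher and 3 lower, TNFSF8 in addition. Of 4 measured cytotoxic genes, the granule proteins GZMB (26.2 against 7.83 CPM) and GNLY (66.9 against 24.5 CPM) were higher on day 3, and 0 of 3 on day 20. Their log2 ratios, 1.02 and 1.16, were close to the 2-fold limit. The 10 richest cells held 31.8% of the GZMB UMIs of the day 3 transferred library and 88.6% of those of the reference.

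Of 12 measured homing and retention genes, 2 were higher and 5 lower on day 3 (median -0.56), and 1 was higher and 4 lower on day 20 (median -0.36). ITGAE, the integrin CD103 that binds E-cadherin, was higher on both days (87.3 against 23.1 and 72.2 against 30.6 CPM), though close to the 2-fold limit on day 20 (log2 ratio 1.02). ITGB7, its partner chain, was past 2-fold on day 3 (439 against 146 CPM) and not on day 20 (216 against 155 CPM). The chemokine receptors CCR6 and CCR9, which guide cells to mucosa and gut, were close to absent from the transferred cells. Just 8 and 1 UMIs of CCR6 were counted there, against 22.6 and 25.6 CPM in the reference, and 1 UMI of CCR9 on each day, against 27.2 and 27.1 CPM. In the reference, CCR6 was concentrated in cluster 9, at 94.9 and 98.8 CPM, which held 79.7% and 80.2% of its UMIs.

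Th17-type genes are those of helper cells that make interleukin-17. Of 4 measured on day 3, 0 were higher and 2 lower (median -1.02), and of 5 on day 20, 3 were lower (median -1.33). They were CCR6, RORA (5.19 and 5.01 against 28.3 and 27.7 CPM) and, on day 20, BHLHE40 (3.34 against 30.03 CPM). Of 8 immediate early and NF-kB response genes, 2 were lower on day 3 and 3 on day 20 (medians -0.59 and -0.60), CD69 on both days. Naive and quiescent T cell genes were mixed. Of 13, 1 was higher and 4 lower on day 3, and 0 higher and 3 lower on day 20. SATB1, a chromatin organiser, was the higher one (83.2 against 16.99 CPM), and IL7R, TCF7, LEF1 and, on day 3, FOXP1 were the lower ones.

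The 19 memory and activation genes were split on day 3 by CPM, with 5 higher and 5 lower. Higher were TAGLN2, MYO1F, ANXA2, CD58 and LGALS3, and lower were ANXA1, ITGB1, S100A4, CD69 and ITGA4. This split depended on the scaling. A shift as large as that of the median gene with TMM (-0.40) would put all 5 higher genes under 2-fold. The 5 lower genes would stay past it. On day 20, 0 of the 19 were 2-fold higher and 5 lower. The day 3 median was 0.27 and was below 0 with TMM (-0.16), with size factors (-0.13) and with CPM over named genes (-0.13), while the day 20 median was -0.51. The interferon response list had a day 3 median of 0.33 that became -0.05, -0.02 and -0.03 under the same 3 scalings. In it MX1, MX2 and IFI44 were lower on day 3, IFI6 too, and BST2 and ISG20 higher, and on day 20 only MX1 and MX2 were past 2-fold. Among T cell receptor signalling genes, LCK, the kinase that starts the signal (681 against 246 CPM), and PTPN22, a phosphatase that restrains it (47.1 against 15.8 CPM), were the 2 of 19 past 2-fold on day 3, and 0 were on day 20. The list's medians, 0.19 and 0.05, were -0.13 and -0.07 with TMM.

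For lists of cell metabolism and growth, beside 0.43 and 0.05 over all genes, the day 3 medians were 0.69 for glycolysis, 0.53 for oxidative phosphorylation, 0.69 for the proteasome, 0.37 for heat shock and chaperones and 0.73 for the cell cycle, and the day 20 medians lay between -0.01 and 0.13. With TMM the day 3 medians were 0.26, 0.10, 0.26, 0.008 and 0.35 in the same order. All of these day 20 medians but that of glycolysis were within 0.06 of 0, and those of oxidative phosphorylation, the proteasome and the cell cycle were below 0 with TMM (-0.06, -0.07 and -0.10). On day 20, of these 5 lists, the single gene past 2-fold was SLC25A4, the mitochondrial ADP/ATP carrier (223 against 104 CPM), close to the limit at a log2 ratio of 1.03. Cytosolic ribosomal protein genes had a median of -0.45 on day 3 (2 higher and 8 lower of 82) and 0.11 on day 20 (1 higher and 0 lower).

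**Figure D4:**
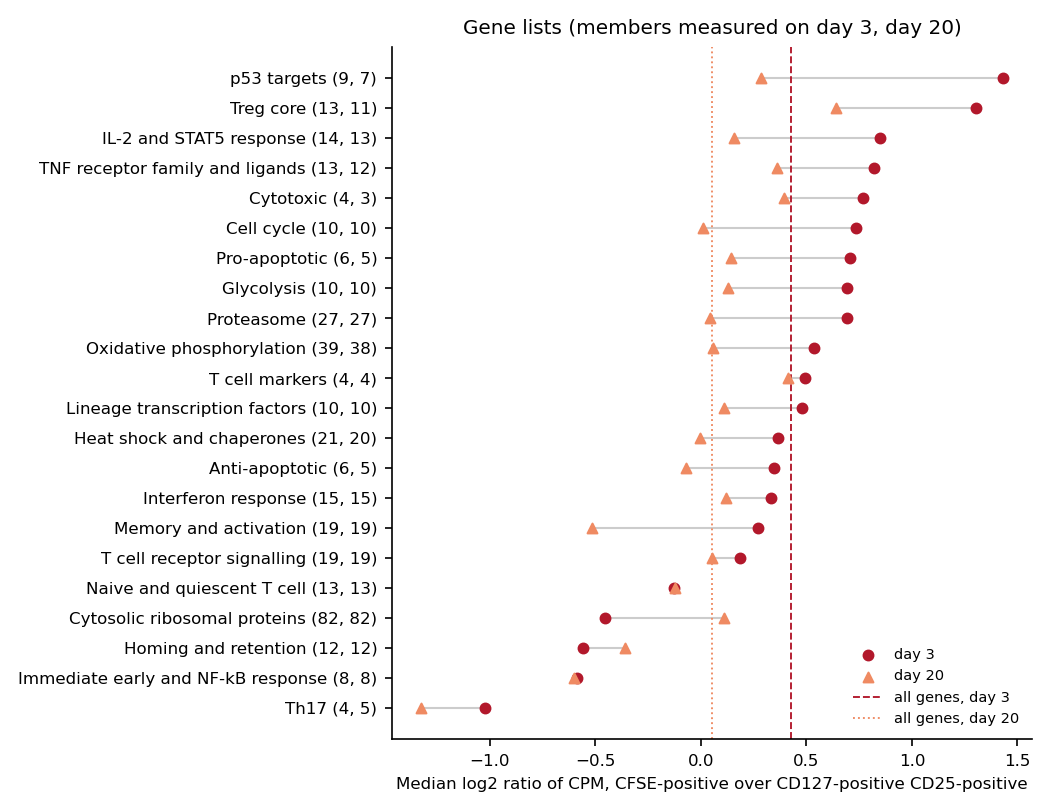
Median log2 ratio of each gene list on day 3 (circles) and day 20 (triangles), with the number of measured members on each day in brackets; the lines mark the medians of all genes at the same minimum level (0.43 and 0.05). The p53 and Treg core lists lie furthest right on day 3, at 1.43 and 1.30, and the Th17 list furthest left on both days, at -1.02 and -1.33.

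The ratio of several genes differed between the days, and for most of them the level in the transferred library differed more than that in the reference. CISH (ENSMMUG00000010497), a cytokine-induced brake on STAT5 signalling, was at 379 CPM in transferred cells on day 3 and 21.7 CPM on day 20, and at 143 and 134 CPM in the reference. It was 2.65-fold higher on day 3 (2.49 to 2.83) and 6.16-fold lower on day 20 (4.80 to 8.03), the single gene called in opposite directions by CPM. A shift as large as that of the median gene with TMM (-0.40) would put its day 3 log2 ratio of 1.35 under 2-fold. BCL2, which blocks apoptosis, was near the reference on day 3 (150 against 187 CPM) and 11.2-fold lower on day 20 (15.7 against 177 CPM, interval 8.42 to 15.4). CCND2, a cyclin of cell cycle entry named after its values were seen, was 70.8 beside 23.03 CPM on day 3 and 18.04 beside 23.2 CPM on day 20. In the CD25high CD127low sort, CISH was at 208 and 66.6 CPM and BCL2 at 219 and 126 CPM, so both were lower on day 20 there as well, by smaller factors.

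Of the other named genes whose ratio was lower on day 20, ZMAT3, APOBEC3H and CITED2 were above the reference on day 3 and close to it on day 20. APOBEC3H, an antiviral cytidine deaminase with related family members, was 273 against 68.2 and 70.2 against 76.0 CPM. CITED2, a transcriptional co-regulator, was 110 against 20.3 and 36.4 against 33.2 CPM. DRA, the alpha chain of an MHC class II molecule, was 70.4 against 7.94 CPM and then 7.35 against 12.8 CPM, and the endoTreg cells held 77.5% and 81.3% of its UMIs in the reference. Its day 20 log2 ratio of -0.39 became 0.42 with matching classes and 0.13 without cells of doubtful identity. LGALS3, a galectin, and LMNA, a nuclear lamin, ended below the reference: LGALS3 was 258 against 116 and then 80.5 against 151 CPM, and LMNA 91.0 against 73.8 and then 31.4 against 111 CPM. The day 3 log2 ratio of LMNA was 0.27, but -0.13 with TMM and -0.10 with both other scalings. In the reference, LMNA lay mostly in clusters 8 and 9, with 74.2% and 78.2% of its UMIs.

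In the other direction, PFDN5, a subunit of the chaperone prefoldin, stood at 45.02 against 239 CPM and then 299 against 266 CPM. CD48, an adhesion molecule of lymphocytes, was 75.6 against 364 and then 483 against 422 CPM. IFI6, an interferon-induced gene, was 27.0 against 125 and then 147 against 167 CPM. These 3 and RPS20 belonged to 10 genes, of 1406 with at least 50 CPM in each of the other libraries, that were more than 3-fold lower in the day 3 transferred library than in each of the other 7, so the ratio turned on that library. CASP12, SLC2A11 and CAMK4 were 2.44-fold, 2.42-fold and 2.47-fold lower on day 3 and at 1.14, 1.02 and 0.89 times the reference on day 20 (SLC2A11 had a log2 ratio of 0.03 there, and -0.09 with TMM). PLA2G16, above, was the eighth. IRAK1, a kinase of interleukin-1 receptor signalling, was 25.6 against 17.6 and then 57.8 against 14.97 CPM.

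**Figure D5:**
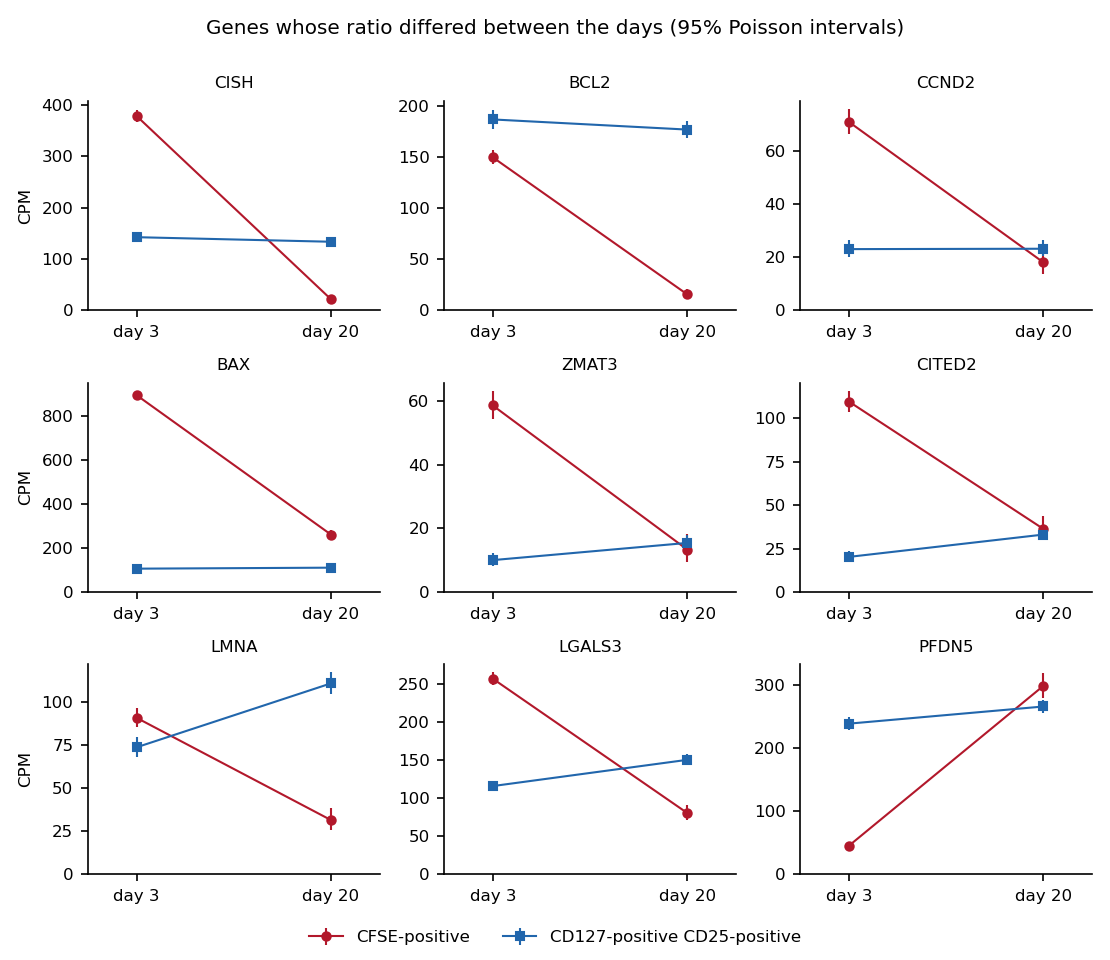
CPM of 9 genes on day 3 and day 20 in the CFSE-positive (circles) and CD127-positive CD25-positive (squares) libraries, on linear axes from 0, with 95% Poisson intervals. For CISH, as for most of the 9, the levels differ more between days in the CFSE-positive cells (379 to 21.7 CPM) than in the reference (143 to 134 CPM).

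Of the 36 genes called higher on day 20, 18 were not called on day 3, and 12 of those had no name. The named ones were MARCKSL1, STRIP2, MIF, IRAK1, RPS24 and FCGRT, of which MIF, a cytokine, was 149 against 61.0 CPM. The 18 genes called lower on day 20 but not on day 3 included S100A6 (303 against 1122 CPM), the transcriptional regulators NFKBIZ and KLF6, the TNF family ligand TNFSF8 (22.4 against 76.4 CPM) and the adhesion molecule ICAM2 (165 against 408 CPM). These genes were named after their values were seen.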

How the data were processed

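The authors deposited UMI counts per gene and cell for 8 libraries of 10x 3' v2 chemistry, made with Cell Ranger 2.1.1 per the submitters' processing notes, with a table of each cell's sort, day, cluster and class. How the authors filtered cells and made clusters is not given in the sources used here, nor is the genome build. All 25397 deposited cells were kept (lowest 817 UMIs), and no doublet caller was run; 349 and 14 transferred and 101 and 121 reference cells on days 3 and 20 carried foreign markers or over 2 times the median UMIs, and an alternative left them out. Of 16429 genes, 3146 had no symbol, and 309 were named from a reference table. Counts were summed per library and scaled to CPM (Python 3.11.15, pandas 2.3.3, scipy 1.17.1). With 1 library per sort and day no test was run within a day, and no model of sort and day across libraries was fitted. Intervals are exact Poisson for levels, exact conditional binomial for folds and Clopper-Pearson for shares. PCR error is not covered.

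The text names the 12 genes per direction called on both days with the largest smaller ratio, the 8 per direction that differed most between days, the sort markers, and members of 36 gene lists (473 of 548 members found). Unnamed, mitochondrial and ribosomal genes were left out. Members and lists were chosen with earlier results of these data known, and a few list entries were respelled, dropped or renamed after the files were seen. Alternatives covered scaling (edgeR 4.0.16 TMM, DESeq2 1.42.0 size factors, CPM over named genes; both tools for scaling only), pseudocount, filter, per-cell means, doublets, classes and depth, with 2 more chosen after seeing the data. Calling was tested on simulated counts drawn from a shared profile, with counting error alone and no shift of the median gene. That test does not show how the calls stand up to differences between libraries or to the scaling.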

Additional observations from a re-analysis of the deposited data

Results flagged for a closer look

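By CPM, CISH lay past 2-fold in opposite directions on the 2 days. Its log2 ratio of transferred over CD127-positive CD25-positive cells was 1.35 on day 3 and -2.18 on day 20. The day 3 call depended on the scaling: a shift as large as that of the median gene with TMM (-0.40) would put it under 2-fold. With 1 library per sort and day, the difference between the days was not tested.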

How the results depend on the processing

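No paired analysis was possible because the comparisons, made within each day between 1 library and 1 library, come from no test. The days are time points and not replicates, and a model of sort and day across libraries was not fitted. Leaving out a library would leave a day with no comparison. The counts of day 3, of day 20 and of both days depended on the scaling, the filter and the pseudocount. With TMM, 79 genes were higher and 209 lower on day 3, 21 higher on day 20 and 11 higher on both days. Median-of-ratios factors gave 87 and 192 on day 3 and 23 higher on day 20, and CPM over named genes gave 85 and 195 on day 3. A pseudocount of 1 CPM gave 58 genes higher on day 20. A pseudocount of 30 CPM gave 139 higher on day 3, 17 on day 20 and 9 on both days. With no filter on level, 66 genes were higher and 84 lower on day 20, and 43 and 51 on both days. A filter of 100 CPM left 163 higher on day 3, 21 higher and 26 lower on day 20, and 9 higher and 14 lower on both days. In all, 22 of the alternative counts moved by over 1.5 times and 56 did not. All 12 named lower genes were past 2-fold on both days in every alternative. All 12 named higher genes were too, except RTKN2 under the 3 scalings, and SFR1, ABI2, PVRIG and RTKN2 with a pseudocount of 30 CPM. With the transTreg and Tconv classes alone, the day 20 medians of the cytotoxic, IL-2 and STAT5 and interferon lists were -0.88, -0.004 and -0.05, in place of 0.40, 0.16 and 0.12. The smallest library, 2992787 UMIs, limits the precision of low genes on day 20, and thinning all 4 libraries to that depth gave 22 and 25 genes on both days.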
